A study of Mus musculus with 15 samples.

Results

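Microglia with a high load of Apoe, the gene of apolipoprotein E, were a small set of cells in the brains of hTfR KI mice. A cell was called Apoe-rich when Apoe made up at least 1% of its unique molecular identifiers (UMIs, the counted RNA molecules), and cells with a UMI of 3 or more of the 7 border macrophage genes Mrc1, Pf4, Cd163, Lyve1, Cbr2, F13a1 and Ms4a7 were left out. In 12 mice, 503 of 81584 cells met this rule, 80837 were the other cells of the same mice, and 244 were left out for border macrophage genes, 15 of which had Apoe at 1% or more. The whole series held 102043 cells. The members were therefore chosen by the measured level of Apoe and the absence of those 7 genes, so none of these 8 genes was tested.

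The cells were enriched with CD45 beads from cortex and hippocampus tissue of 3.5-month-old hTfR KI males on C57BL/6J. All mice, controls included, carried the human apical domain of the transferrin receptor in the mouse gene and received 1 dose of 10 mg/kg. ATV:4D9 joins an antibody against mouse TREM2 to the antibody transport vehicle (ATV), an Fc that binds this receptor domain and so carries antibody into the brain, and ATV:RSV is an isotype control on the same vehicle. The 4 groups were ATV:RSV day 1 and ATV:4D9 days 7, 14 and 28, with 3 mice each, and every one of the 3 batches held a mouse from each group. Day 1 of ATV:4D9, where 65 cells met the same rule, was left out of the comparisons by the definition of the cells. The later days had no control of the same day, so every comparison between days used the same 3 ATV:RSV mice.

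Apolipoprotein E is the main lipid carrier of the brain. Astrocytes make most of it, while microglia at rest make little and raise it when they take up lipid or debris. This state, described as disease-associated microglia (DAM), pairs a rise of Apoe, Lpl, Cst7, Axl, Itgax and Clec7a with a loss of the homeostatic genes P2ry12 and Tmem119. It depends in part, not in every step, on TREM2, a receptor for lipids and lipoproteins that signals through the adaptors Tyrobp and Hcst.

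Apoe-rich cells carried the markers of microglia. Of the 503 cells, 499 (99.2%) had a UMI of at least 6 of 12 microglia markers, against 99.8% of the other cells, and 3 had 3 or fewer. One of the latter, a cell of 979 UMIs in ATV:RSV day 1 replicate 3, had 2 microglia markers and 27 UMIs of mural cell and fibroblast genes. Markers of the other cell types that the CD45 gate could hold were at or near 0: summed per mouse, the 8 monocyte markers stood at 0 to 21.1 CPM (UMIs scaled to a common library size) in Apoe-rich cells and at 7.10 to 17.1 CPM in the others, the 8 neutrophil markers at 0 to 18.8 and 0.919 to 170 CPM, the 7 dendritic cell markers at 0 to 14.6 and 3.45 to 4.85 CPM, and the 7 T and NK cell markers at 0 to 16.1 and 7.75 to 15.8 CPM. The 6 B cell markers summed to 160 to 278 CPM against 219 to 284 CPM, most of it Ighm. The 8 border macrophage markers that the rule did not use summed to 154 to 242 CPM in Apoe-rich and 186 to 233 CPM in other cells.

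Astrocytes are the main alternative source of Apoe RNA. The 12 astrocyte markers summed to 155 to 824 CPM in Apoe-rich cells (median over mice 230) and to 213 to 300 CPM in other cells (median 260). The 824 CPM belonged to ATV:RSV day 1 replicate 3, where 1 cell held 42 UMIs of 9 astrocyte markers beside all 12 microglia markers. Aqp4 and Gfap, which define astrocytes, had 2 and 3 UMIs in the Apoe-rich cells of all mice. Slc1a3, the astrocyte marker with most UMIs in both pools, did not pass the test between them (log2 difference -0.08 ± 0.08, adjusted p = 0.494, limma-voom).

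Each mouse held 18 to 63 Apoe-rich cells with 127663 to 521049 UMIs in all, and 1 UMI in such a pool was worth 2.17 to 8.87 CPM, so genes of low level were read from few molecules. Apoe-rich cells were deeper than the others, with a median of 6636 against 5477 UMIs per cell. Their percent of mitochondrial UMIs was higher in 12 of 12 mice, at a mean of 4.27% ± 0.374 (SD of the mouse medians, n = 12) against 3.43% ± 0.301 (two-sided exact permutation of signs, p = 0.000488, the smallest it can give, adjusted 0.000488). With each cell thinned to 3281 UMIs, which left out 45 Apoe-rich and 8100 other cells, they had 1352 ± 26.7 genes against 1473 ± 28.7 and fewer in 12 of 12 mice (exact p = 0.000488, adjusted 0.000488), whereas without thinning they had 2144 against 2062. With other cells drawn to the depth of the Apoe-rich ones, 840 genes were higher and 355 lower in the comparison of the pools described below, in place of 844 and 415. The part of the mitochondrial percent and of the genes per cell in the results was not tested. One library stood apart: in ATV:RSV day 1 replicate 2 a single cell of 23111 UMIs held 10.6% of the UMIs of its Apoe-rich pool. Libraries shared 1283 barcode sequences, 12 Apoe-rich cells had one of them, and no 2 Apoe-rich cells shared one.

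The first question was how many Apoe-rich cells each group held. The share of cells was 0.313%, 0.427% and 0.385% in the 3 ATV:RSV day 1 mice. At day 7 of ATV:4D9 it was 1.04%, 0.653% and 0.803%, and at day 28 it was 0.810%, 0.751% and 0.694%. All 6 of these mice lay above every ATV:RSV mouse, and their 95% Wilson intervals, which cover counting error only, had their lowest bound at 0.474%, while those of the ATV:RSV mice reached up to 0.612%, so that intervals of single mice overlap. At day 14 replicates 1 and 2, at 0.375% and 0.303%, lay within or below the range of the controls while replicate 3 reached 0.810%.

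The mean share was 0.375% ± 0.0574 (SD, n = 3) in ATV:RSV, 0.834% ± 0.198 at day 7, 0.496% ± 0.274 at day 14 and 0.751% ± 0.0585 at day 28. Day 7 minus ATV:RSV was 0.459 percentage points (exact p = 0.1 by a two-sided permutation test, the lowest value that 3 against 3 can give, adjusted 0.15 over the 3 days) and was positive in 3 of 3 batches, as was the difference at day 28 of 0.376 points (exact p = 0.1, adjusted 0.15). The day 14 difference was 0.121 points (exact p = 0.9), and -0.0362 points without day 14 replicate 3. None of the 3 days passed at 0.05, which this test of 3 mice against 3 cannot reach. A single exact test of the 4 groups, added after the shares had been seen, gave p = 0.046 with the mice permuted freely and 0.0781 with the mice permuted within batches.

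**Figure D1:**
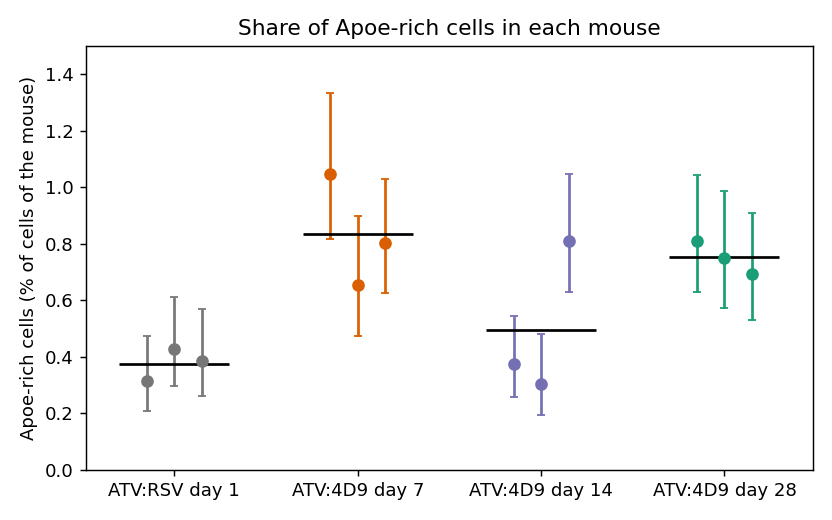
Apoe-rich cells as a percent of the cells of each mouse (vertical axis), by group (horizontal axis). Points are mice in the order of their replicate number with 95% Wilson intervals, and black lines are group means. The 3 day 7 and 3 day 28 mice lie above the 3 ATV:RSV mice, and the day 14 mice lie at 0.303%, 0.375% and 0.810%.

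The threshold cut through a continuous distribution. There were 90 cells with Apoe from 1% to under 1.1% of UMIs and 99 cells from 0.9% to under 1%, with a median of 66.5 and 58 Apoe UMIs. The level of Apoe over the Apoe-rich and other cells of a mouse also differed between the groups. Its median share was 0.00993% to 0.0149% in ATV:RSV mice, 0.0323% to 0.0331% at day 7, 0.0162% to 0.0245% at day 14 and 0.0159% to 0.0218% at day 28. The day 7 and day 28 shares were above every ATV:RSV mouse at thresholds of 0.5% and 2% too. The 3 day 14 mice were above every ATV:RSV mouse at 0.5% (exact p = 0.1, adjusted 0.1) and 1 of them at 2%. At 0.5% the means were 1.15%, 3.61%, 1.80% and 1.70% in ATV:RSV and at days 7, 14 and 28, and at 2% they were 0.129%, 0.210%, 0.102% and 0.276%.

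Within the Apoe-rich cells Apoe made up 1.00% to 8.28% of the UMIs of a cell (median 1.43%), which describes the rule and was not tested. The same cells held 9.62% to 29.2% of the Apoe UMIs in the Apoe-rich and other cells of a mouse, the cells left out not counted. The 3 highest values, 28.3%, 29.2% and 28.2%, were those of the day 28 mice. By the deposited clusters, 59.6% of the Apoe-rich cells were in cluster 0, 30.4% in cluster 1 and 9.94% in cluster 2, against 58.0%, 40.3% and 1.67% of the other cells.

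The second question was what else was different in these cells. UMIs were summed over the Apoe-rich and over the other cells of each mouse and compared within the mice, and 4824 genes had enough UMIs to be tested. By limma-voom, with calls at an adjusted p under 0.05, 844 genes (17.5%) were higher and 415 (8.6%) lower in Apoe-rich cells, so 26.1% of the genes were called, and the median log2 difference of all genes was 0.01. Of the calls, 67.0% were higher, and a change of 2-fold or more was reached by 64 of the higher and 7 of the lower genes. With the library size alone as scale, 537 genes were higher and 1198 lower (31.0% higher) and the median of all genes moved to -0.13, while 22 DAM genes were still higher, 12 microglia markers lower and 79 ribosomal protein genes higher.

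The genes of the DAM list rose together. Of its 24 members, Apoe not counted, 22 were tested and all 22 were higher, with a median log2 difference of 0.94. A gene was tested when 3 of the 24 pools reached 32.7 CPM, with the other pools brought to the depth of the Apoe-rich ones. For 9 of the 22 (Lpl, Cst7, Spp1, Axl, Itgax, Clec7a, Fabp5, Lgals3 and Ank) the other pools did not reach this in 3 mice and the Apoe-rich pools did, so they could hardly have been tested without being higher. The other 13 passed in each kind of pool by itself, and all 13 were higher (median 0.62, against 0.00 for the 4239 genes that passed in both, of which 727 were higher and 384 lower). Igf1, a growth factor of microglia, and Gpnmb, a lysosomal glycoprotein, were not tested, with 66 and 9 UMIs in the Apoe-rich cells.

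The largest differences were in genes that the other cells hardly carried. Clec7a and Axl passed the filter through the Apoe-rich pools alone, so their direction was all but set in advance. Their p-values therefore add no support of their own. Clec7a, which encodes the receptor dectin-1, stood at 112 to 395 CPM in the Apoe-rich cells of the 12 mice (median 174) and at 10.3 to 29.8 CPM (median 14.9) in the others. The pools did not overlap, and the log2 difference was 3.54 ± 0.20 (SE, n = 12 mice; adjusted p = 3.1e-10, limma-voom). Its UMIs came from 218 of the 503 cells. Axl, a receptor tyrosine kinase that binds apoptotic cells, stood at 28.2 to 121 CPM (median 55.2) against 1.91 to 11.6 CPM (median 4.08), again without overlap (log2 difference 3.76 ± 0.26, adjusted p = 2.62e-09).

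Among lipid genes of the DAM list, Lpl, a secreted lipase of triglyceride-rich lipoproteins, stood at 21.1 to 575 CPM (median 65.7) against 7.51 to 16.5 CPM (median 12.3). Fabp5, a fatty acid carrier of the cytosol, stood at 13.5 to 111 CPM (median 46.0) against 2.85 to 7.17 CPM. Like Clec7a, Lpl and Fabp5 passed the filter through the Apoe-rich pools alone, which all but set their direction. Both pools were apart in every mouse, with log2 differences of 2.97 ± 0.30 (adjusted p = 3.27e-07) and 3.53 ± 0.27 (adjusted p = 9.23e-09). For Lpl the 575 CPM was that of ATV:RSV day 1 replicate 2, where 52 of 109 Lpl UMIs came from the single deep cell.

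Other genes of the list were carried by nearly every cell and rose by less. Cd63, a tetraspanin of late endosomes, stood at 882 to 1870 CPM (median 1280) against 412 to 659 CPM (median 503). Its log2 difference was 1.27 ± 0.08 (adjusted p = 1.91e-09), higher in 12 of 12 mice. Ctsb, a lysosomal protease, stood at 1680 to 2800 CPM against 1100 to 1460 CPM (0.75 ± 0.07, adjusted p = 3.25e-08). Trem2 itself differed least in the list, at 2900 to 3850 CPM (median 3280) against 2610 to 2960 CPM (median 2710), though higher in 12 of 12 mice (0.29 ± 0.03, adjusted p = 4.9e-08), and its adaptor Tyrobp was at 3680 to 5850 against 2900 to 3370 CPM (0.47 ± 0.05, adjusted p = 4.65e-07).

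**Figure D2:**
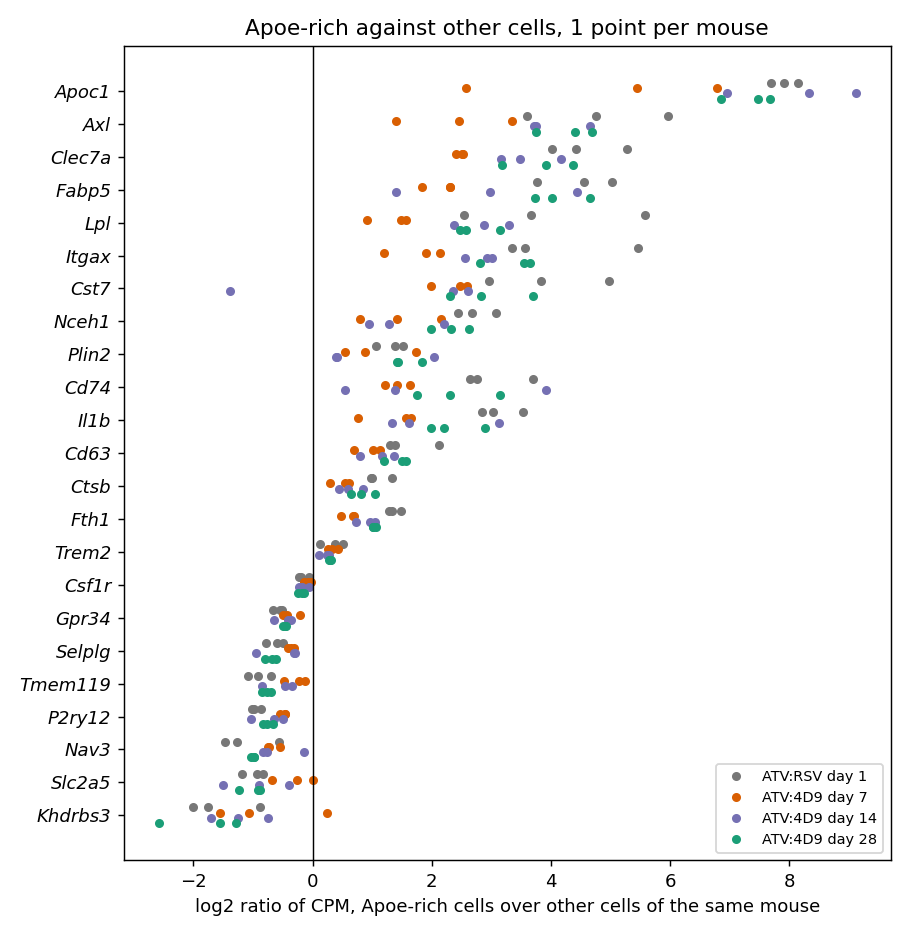
The log2 ratio of the CPM of Apoe-rich cells over that of the other cells of the same mouse (horizontal axis) for single genes (vertical axis), 1 point per mouse, coloured by group. An offset of counts is added to every pool, so a pool with 0 UMIs can lie to the right of 0. Apoc1 in day 7 replicate 3, with 0 UMIs in its Apoe-rich cells, lies at 2.57 for this reason. Axl and Clec7a lie to the right of 0 in 12 of 12 mice, and P2ry12 and Tmem119 lie to its left in 12 of 12 mice.

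Spp1, the gene of osteopontin, came from very few cells. The Apoe-rich cells held 946 Spp1 UMIs in 32 cells, 721 of them in ATV:RSV day 1 replicate 2 and 562 in its single deep cell. In CPM the Apoe-rich pools ranged from 0 in 2 mice to 3800 (median 50.8), and the other cells from 0.695 to 2.13 (median 1.16). The gene passed the filter through the Apoe-rich pools alone, which all but set its direction. It was higher in 10 of 12 mice (fitted log2 difference 8.28 ± 0.70, adjusted p = 2.52e-08). That 1 cell, of cluster 2, had Apoe at 2.39% of its UMIs, a UMI of 23 of the 24 DAM genes, 1 UMI of P2ry12 and 0 of Tmem119.

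By the rule for the largest changes, 12 genes were named as highest: Apoc1, Cp, Cybb, Lgals3, Axl, Wfdc17, Clec7a, Fabp5, Vim, Itgax, Lpl and Cst7. All 12 passed the filter through the Apoe-rich cells alone. Apoc1, which encodes another lipoprotein component, is at 19689481 to 19692660 on the minus strand of chromosome 7 (mm10), 3448 bases from Apoe at 19696109 to 19699188 on the same strand. It had 103 UMIs in 39 Apoe-rich cells, at 0 to 142 CPM (median 29.9), against 0.0217 to 0.306 CPM in the other cells, and was higher in 11 of 12 mice (fitted log2 difference 7.24 ± 0.38, adjusted p = 2.16e-10). The 12th mouse, day 7 replicate 3, had 0 Apoc1 UMIs in its Apoe-rich cells, which allows up to 7.89 CPM. Apoc2 and Apoc4 of the same gene cluster had 26 and 7 UMIs and were not tested.

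Of these genes 4 lie outside the lists. Cp, which encodes the ferroxidase ceruloplasmin, stood at 0 to 55.3 CPM against 0.48 to 1.1 CPM (log2 difference 5.28), and Cybb, the catalytic subunit of the phagocyte NADPH oxidase, at 9.39 to 116 against 1.3 to 4.03 CPM (4.46). The pools of Cybb did not overlap. Wfdc17 stood at 7.89 to 166 against 1.77 to 3.44 CPM (3.58) and Vim, the filament protein vimentin, at 12.1 to 111 against 2.49 to 4.56 CPM (3.20).

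Of 20 genes of lipid handling 12 were tested, and 9 were higher, none lower and 3 did not pass (median 0.46). Over all 4824 genes tested 17.5% were higher. Among the 8 that did not depend on the Apoe-rich cells to pass the filter, 5 were higher (median 0.36), beside 727 of the 4239 genes that passed in each kind of pool. Apoc1, Scd2, Nceh1 and Plin2 were the 4 that did depend on them. Nceh1, which splits cholesteryl ester, stood at 17.7 to 94.9 CPM (median 49.6) against 9.64 to 14.7 CPM (log2 difference 2.10 ± 0.16, adjusted p = 7.48e-09). Plin2, the coat of lipid droplets, was at 24.2 to 87.8 CPM against 17.1 to 24.8 CPM (1.33 ± 0.14, adjusted p = 6.47e-07), and Soat1, which makes cholesteryl ester, at 70.4 to 142 against 56.0 to 74.4 CPM (0.76 ± 0.08, adjusted p = 8.83e-07). All 3 were higher in 12 of 12 mice. Npc2, the soluble cholesterol carrier of the lysosome, rose (0.71 ± 0.05) while its partner Npc1 did not pass the test (0.16 ± 0.09, adjusted p = 0.212), and the exporters Abcg1 and Abca1 rose by less (0.46 ± 0.08 and 0.35 ± 0.06), the latter in 8 of 12 mice. Of the Apoe receptors only Lrp1 was tested, at 234 to 317 against 284 to 338 CPM (-0.10 ± 0.05, adjusted p = 0.126).

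In the lysosome list 9 of 10 genes were higher and 1 lower (median 0.38), beside 17.5% higher and 8.6% lower among all 4824 genes tested. Among the 9 that passed the filter in each kind of pool, 8 were higher (median 0.31). Cd52, a surface glycoprotein placed in this list, stood at 553 to 1530 CPM against 255 to 513 CPM (log2 difference 1.13 ± 0.12, adjusted p = 4.62e-07). Psap, the precursor of the saposins, stood at 1570 to 2140 against 1180 to 1350 CPM (0.57 ± 0.04), and Lamp1, a membrane protein of lysosomes, at 1050 to 1500 against 817 to 979 CPM (0.50 ± 0.03), both higher in 12 of 12 mice. Lgmn, the protease legumain, had a log2 difference of -0.06 ± 0.02 (adjusted p = 0.0374), lower in 9 of 12 mice. That call held under 10 of 29 alternatives and was lost under 18, edgeR and DESeq2 among them, and the difference was 0.01 with the threshold of 0.5%.

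Of the 12 microglia markers, the homeostatic genes, 11 were lower (median -0.35), against 8.6% of all 4824 genes tested. P2ry12, the purine receptor of resting microglia, stood at 1000 to 1470 CPM (median 1270) in Apoe-rich and 1740 to 2230 CPM (median 2080) in other cells. The pools did not overlap (log2 difference -0.71 ± 0.05, adjusted p = 1.95e-09). Tmem119 stood at 554 to 1010 against 1030 to 1270 CPM (-0.58 ± 0.07, adjusted p = 1.49e-06) and Selplg, a ligand of selectins, at 1120 to 1720 against 1910 to 2200 CPM (-0.55 ± 0.05, adjusted p = 5.05e-08), both without overlap. Csf1r, the receptor that microglia need for survival, differed least of the 11 (-0.14 ± 0.02) and yet was lower in 12 of 12 mice.

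The 12 named lowest genes were Khdrbs3, Bank1, Kcnk12, Il7r, Upk1b, Klhdc8b, Nav3, Csmd3, Plxna4, Slc2a5, Ddit4 and Mtss1. Slc2a5, a fructose transporter of microglia, stood at 83.0 to 197 CPM against 200 to 292 CPM (log2 difference -0.81) and Nav3, a cytoskeletal protein, at 79.8 to 177 against 175 to 267 CPM (-0.85). Khdrbs3, an RNA-binding protein, had the largest difference of the 12, at 12.7 to 70.4 against 61.1 to 94.7 CPM (-1.30). Of the 12 lowest genes 5 passed the filter through the other cells alone, as the 12 highest did through the Apoe-rich cells, so the sizes of the named rises and falls cannot be set against each other. Among the 4239 genes that passed in each kind of pool, 23 of the higher genes and 1 of the lower reached 2-fold.

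Of 11 tested chemokine and cytokine genes 8 were higher (median 0.57), and so were 3 of 4 of MHC class II, against 17.5% of all 4824 genes. Il1b, the gene of interleukin 1 beta, stood at 436 to 961 CPM (median 768) against 66.9 to 409 CPM (median 134), without overlap (log2 difference 2.00 ± 0.18, adjusted p = 3.84e-08). Il1b UMIs were found in 197 of the 503 cells. The chemokine Ccl3 stood at 568 to 3070 against 813 to 2190 CPM and was higher in 10 of 12 mice (0.71 ± 0.10, adjusted p = 1.24e-05). Tnf (0.08 ± 0.13, adjusted p = 0.688), Ccl2 and Ccl9 did not pass. The sum of the list was higher in the Apoe-rich cells of 11 of 12 mice.

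Cd74, the invariant chain of MHC class II, stood at 72.6 to 594 CPM (median 153) against 28.8 to 50.7 CPM (median 39.5), without overlap (log2 difference 2.26 ± 0.23, adjusted p = 2.32e-07). With H2-Ab1 and H2-DMa it made up the 3 higher genes of the 4 tested in this list (median 0.88). H2-Ab1 passed the filter through the Apoe-rich cells, and without it 2 of 3 were higher (median 0.42). In the interferon list 5 of 16 genes were tested and 4 were higher, among them Ifitm3 (1.35 ± 0.19, adjusted p = 1.38e-05). The complement genes C1qa, C1qb, C1qc and C3ar1 were higher, by 0.12 to 0.31 (C1qc was at -0.02 with library size alone), and the other 3 of the 7 tested, Itgam and C5ar1 among them, did not pass. Of 5 tested genes of TREM2 signalling the adaptor Hcst was higher (0.49 ± 0.09, adjusted p = 0.000268) and the lipid phosphatase Inpp5d lower (-0.29 ± 0.04, adjusted p = 3.37e-05), while the kinase Syk, the phospholipase Plcg2 and Vav1 did not pass. Over all 4824 genes tested 17.5% were higher and 8.6% lower, so these 2 calls say nothing about TREM2 signalling as a group.

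Immediate early genes, which rise when tissue is dissociated, did not move as a group: 4 of 15 were higher (Klf2, Nr4a1, Klf6 and Ier2), 2 were lower (Jun, and Hspa1b, which passed the filter through the other cells alone), and the median was 0.03. Among all 4824 genes 17.5% were higher and 8.6% lower. Fos stood at 2840 to 5340 against 3510 to 4270 CPM (0.08 ± 0.06, adjusted p = 0.338). Of the cell cycle list only Pcna and Mcm3 were tested and neither passed, and Mki67 had 3 UMIs in the Apoe-rich cells.

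Ribosomal protein genes, a group taken up after the comparison between days had been seen, were higher almost throughout: 79 of the 80 tested passed, with a median of 0.47 against 0.01 for all genes. They made up 18.8% to 22.4% of the scaled UMIs in Apoe-rich cells and 12.3% to 17.9% in other cells, and the Apoe-rich pool was the higher in each of the 12 mice. In ATV:RSV day 1 replicate 1 the Apoe-rich pool had 162847 scaled and 189164 unscaled UMIs, and the other pool 46074765 and 45931118. In unscaled UMIs the gap is therefore smaller there.

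These differences followed the level of Apoe below the threshold as well. Over the cells of all 12 mice, in 7 bins from under 0.05% to 2% of UMIs or more, Clec7a rose from 10.5 to 279 CPM, Axl from 3.04 to 96.1 CPM and Il1b from 146 to 871 CPM, each higher in every bin than in the one before. Within each of the 4 groups this held for Clec7a, whereas Axl went from 30.0 to 26.4 CPM across the threshold in ATV:RSV and Il1b from 757 to 685 CPM into the last bin at day 7. P2ry12 fell over the same bins from 2080 to 893 CPM and Tmem119 from 1180 to 544 CPM, although P2ry12 went from 1760 to 1810 CPM between the first bins at day 7 and Tmem119 from 945 to 958 CPM into the bin of 0.5% to 1% at day 14. The bin of 0.5% to 1%, just under the threshold, held 1181 cells and, with all mice pooled, stood between its neighbours for these 5 genes, while Cd74 was at 126 CPM there and at 99.5 CPM in the bin of 1% to 2%. The sum of the astrocyte markers was 251 CPM in the lowest and 224 CPM in the highest bin. These bins pool the cells of all mice and are given with no test.

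**Figure D3:**
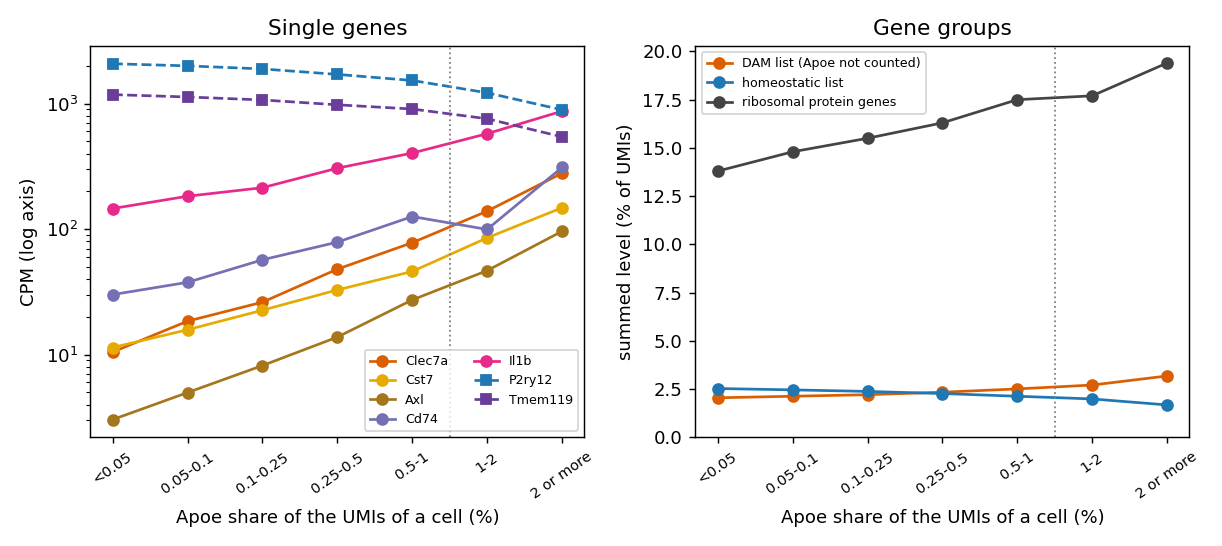
Levels over 7 bins of the Apoe share of a cell (horizontal axis, percent of its UMIs), with the cells of all 12 mice pooled in each bin. The left panel shows CPM of 7 genes on a log axis and the right panel the summed level of 3 gene groups in percent of UMIs; the dotted line marks the threshold of 1%. In these pooled cells Clec7a, Cst7 and Axl rise and P2ry12 and Tmem119 fall from bin to bin on both sides of the line. Within groups Cst7 broke this rise: 33.8 to 32.8 CPM in ATV:RSV, 129 to 93.1 at day 7, 50.2 to 30.3 at day 14.

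The DAM genes that other cells hardly carried were found in a part of the Apoe-rich cells. These were 11 genes with under 20 CPM in the other cells, a group chosen after their levels were seen, so a low share in the other cells is set by the choice and the gap between the pools is no result of its own. With each cell thinned to 3281 UMIs, 149 of 458 Apoe-rich cells (32.5%, 95% Wilson interval 28.4% to 37.0%) had a UMI of at least 2 of the genes, beside 1697 of 72737 other cells (2.33%). That interval pools the cells of all mice and covers counting error only, not the spread between mice. Without thinning the shares were 52.4% and 6.51%. By mouse the thinned share was 42.1%, 37.5% and 42.9% in ATV:RSV, 31.5%, 27.3% and 32.8% at day 7, 37.0%, 22.2% and 24.5% at day 14 and 32.1%, 34.7% and 34.8% at day 28 of ATV:4D9. Each share rests on 18 to 58 cells, and differences between the groups were not tested. With the cells of a group pooled, the share with at least 1 of the genes was 59.4% in ATV:RSV, 60.7% at day 7, 58.2% at day 14 and 67.5% at day 28. Without thinning the share with at least 2 was 51.6% in ATV:RSV, 48.3% at day 7, 48.0% at day 14 and 59.6% at day 28, so the order of the groups was not the same on the 3 measures. In cluster 2 the thinned share with at least 2 of the genes was 72.0% of 50 Apoe-rich cells and 34.2% of 1303 other cells. Without thinning these were 86.0% and 55.9%. Thinned, 62.2% of the 458 Apoe-rich cells had a UMI of at least 1 of the 11 genes, beside 16.7% of the other cells.

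The third question was whether the Apoe-rich cells themselves differed between the days. Of 4652 genes tested among the Apoe-rich pools alone, 2 (0.043%) were called at day 7 of ATV:4D9 against ATV:RSV, both lower, and 0 (0%) at day 14 and 0 (0%) at day 28. At an unadjusted p under 0.05 there were 353, 243 and 245 genes at days 7, 14 and 28 (7.59%, 5.22% and 5.27%). At days 14 and 28 this is close to the share that the cutoff of 0.05 gives where no gene differs. On the same days edgeR called 11, 0 and 0 and DESeq2 4, 0 and 0. With the batch as a block limma-voom called 10, 0 and 1, and without ATV:RSV day 1 replicate 1 it called 20 at day 7. At the threshold of 0.5% it called 44, 0 and 0 genes. The 2% fit held 9 mice, without ATV:RSV day 1 replicate 1 and day 14 replicates 1 and 2. It called 30 genes at day 7 and 27 at day 28, while day 14 held replicate 3 alone.

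The 2 genes were Fth1 and Tmsb4x. Fth1, the heavy chain of the iron store ferritin, stood at 9870, 9350 and 9470 CPM in the Apoe-rich cells of the ATV:RSV mice, at 7600, 6890 and 6600 CPM at day 7, at 7790, 8830 and 7270 CPM at day 14 and at 8250, 7820 and 8440 CPM at day 28. All 9 ATV:4D9 values were below the 3 ATV:RSV values, and day 7 passed the test (log2 difference -0.45, adjusted p = 0.013, limma-voom). Tmsb4x, which binds actin monomers, stood at 19000, 23300 and 22800 CPM in ATV:RSV and at 17600, 16700 and 15300 CPM at day 7 (-0.40, adjusted p = 0.019). Both calls were lost at the threshold of 0.5% (-0.22 and -0.18), without cluster 2 and without day 7 replicate 3, and that of Tmsb4x also in DESeq2, without cells with any border macrophage gene and without ATV:RSV day 1 replicate 2.

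Whether the gap between Apoe-rich and other cells differed between groups was tested as an interaction over both pools. At day 7 of ATV:4D9 the gap was more positive than in ATV:RSV for 14 of 4824 genes (0.29%) and less positive or more negative for 142 (2.94%). Over 22 alternatives the first count ran from 0, without the 5% of cells with most UMIs, to 25, and the second from 87 to 193. At day 14 these counts were 1 (0.0207%) and 40 (0.829%), and at day 28 they were 0 (0%) and 6 (0.124%). At an unadjusted p under 0.05 there were 595, 451 and 363 genes (12.3%, 9.35% and 7.52%), and edgeR called 129, 9 and 1. The day 14 total of 41 was 12 without day 14 replicate 3, 18 without ATV:RSV day 1 replicate 3 and 1 without the cells of cluster 2, and the day 28 total of 6 was 1 without day 28 replicate 2 or 3 and without cluster 2.

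Ribosomal protein genes, a group taken up after this comparison had been seen, were 80 of the 4824 genes tested. They were 70 of the 142 at day 7, 30 of the 40 at day 14 and 2 of the 6 at day 28. Their share of the scaled UMIs in the other cells was 12.9%, 12.6% and 12.3% in the ATV:RSV mice and 17.9%, 17.5% and 17.2% at day 7. In the Apoe-rich cells it was 21%, 19.1% and 20.8% in ATV:RSV and 22.4%, 22.4% and 20.7% at day 7. The other cells of the 2 groups did not overlap and the Apoe-rich cells did. At day 14 the other cells stood at 14.6% to 16.3% and the Apoe-rich cells at 19.8% to 21.9%, and at day 28 the ranges were 12.9% to 13.8% and 18.8% to 20.3%. Within the Apoe-rich pools 0 of 80 ribosomal protein genes were called at any of the 3 days. In that fit 2 (0.043%), 0 and 0 of all 4652 genes were called, so 0 is near the share over all genes. The interaction count of 30 at day 14 was 50 and 8 without ATV:RSV day 1 replicates 2 and 3, and 9 without day 14 replicate 3. It was 3 in edgeR, 1 without the 5% of cells with most UMIs and 0 without cluster 2. The count of 2 at day 28 was 6 without ATV:RSV day 1 replicate 2, and 0 in edgeR and without cluster 2.

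**Figure D4:**
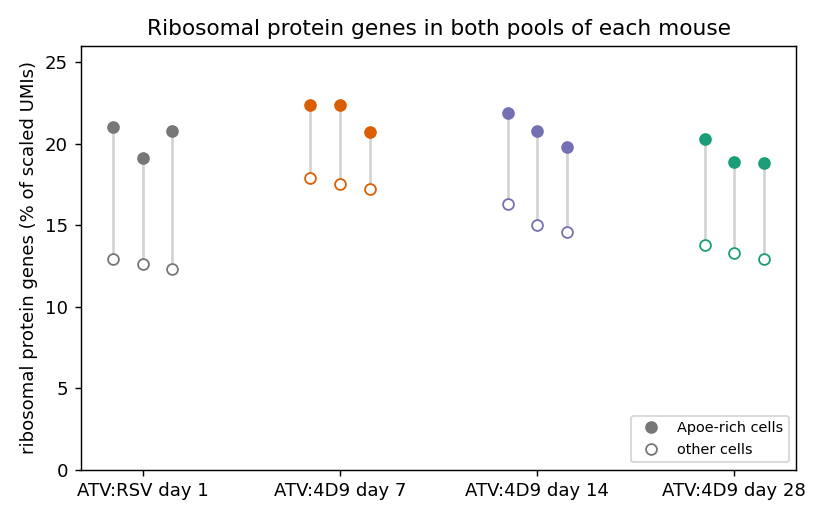
Ribosomal protein genes as a percent of the scaled UMIs (vertical axis) in the Apoe-rich cells (filled) and the other cells (open) of each mouse, by group (horizontal axis); a grey line joins the pools of a mouse. The other cells rise from 12.3% to 12.9% in ATV:RSV to 17.2% to 17.9% at day 7, and the Apoe-rich cells stand at 18.8% to 22.4% in all 4 groups.

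For the DAM list the gap was widest in the ATV:RSV mice: the median log2 difference of the 22 genes was 1.40 there and 0.68, 0.61 and 1.04 at days 7, 14 and 28. At day 7, 16 of the 22 had a smaller gap in the interaction test, against 2 at day 14 and 1 at day 28. Over all 4824 genes tested the gap was less positive or more negative for 142 (2.94%), 40 (0.829%) and 6 (0.124%). For the 13 genes that did not depend on the Apoe-rich cells to pass the filter, the median was 0.88 in ATV:RSV, 0.41 at day 7, 0.50 at day 14 and 0.60 at day 28, and 8, 2 and 1 of them had a smaller gap at those days. Of the 4239 genes that passed in each kind of pool, 127, 39 and 6 were called in that direction. The count of 16 rested in part on 3 libraries and on 1 cluster, since it was 5 without ATV:RSV day 1 replicate 2, 7 without day 7 replicate 2, 9 without day 7 replicate 3 and 6 without the cells of cluster 2, whereas for the ribosomal protein genes it was 72, 72, 68 and 58. The DAM count was also 9 without the 5% of cells with most UMIs and 9 without cells with any border macrophage gene. At day 14 the DAM count of 2 was 12 without ATV:RSV day 1 replicate 1 and 0 without day 14 replicate 3. At day 28 the 1 was 3 without ATV:RSV day 1 replicate 1 and 0 without cluster 2. Among homeostatic genes the gap was smaller at day 7 for 2 of 12, P2ry12 (interaction 0.48, adjusted p = 0.00581) and Tmem119 (0.62, adjusted p = 0.00615), beside 14 of all 4824 genes (0.29%) in that direction. Both calls were lost without the 5% of cells with most UMIs, without cluster 2 and without ATV:RSV day 1 replicate 1, that of P2ry12 also without replicate 2 and that of Tmem119 without replicate 3.

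For Clec7a the values of both pools lay apart between ATV:RSV and day 7, which was not tested for the other cells. In the other cells it stood at 11.9, 10.3 and 10.5 CPM in ATV:RSV and at 19.7, 29.8 and 28.1 CPM at day 7. In the Apoe-rich cells it stood at 190, 395 and 222 CPM in ATV:RSV and at 112, 155 and 158 CPM at day 7. Neither pool overlapped between the groups, and the interaction was -2.22 ± 0.37 (adjusted p = 0.000795), while the difference among the Apoe-rich pools alone did not pass (-0.92, adjusted p = 0.353). Clec7a had passed the filter through the Apoe-rich pools alone, and those of both groups stood above its 32.7 CPM. For Il1b the values of the other cells lay apart, at 122, 88.4 and 66.9 CPM in ATV:RSV and 245, 409 and 322 CPM at day 7. The Apoe-rich pools overlapped, at 872, 717 and 769 and at 766, 695 and 958 CPM (interaction -1.68 ± 0.35, adjusted p = 0.00652).

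Fth1 passed the interaction test at day 7 (-0.76 ± 0.07, adjusted p = 2.66e-06) as well as at day 14 (-0.50 ± 0.07, adjusted p = 0.00294) and day 28 (-0.34 ± 0.06, adjusted p = 0.0453). The day 7 call held under 22 of 22 alternatives, the day 14 call under 20, the exceptions being without the deepest cells and without cluster 2, and the day 28 call under 10. The last was lost in edgeR, with library size alone, at 0.5%, under each of the 5 other selections of cells and without ATV:RSV day 1 replicate 1 or any 1 day 28 mouse. In its case the Apoe-rich cells were lower and the other cells higher than in ATV:RSV, where the latter stood at 3510, 3730 and 3890 CPM against 4680, 4300 and 4760 CPM at day 7. Cdkn1a, an inhibitor of the cell cycle, also passed at all 3 days. At the threshold of 2%, where 9 mice had enough cells, the call was lost at days 7 and 28. The interactions there were -0.10 at day 14, which held replicate 3 alone, and 0.26 at day 28. The day 28 call was also lost at 0.5% and without cells with any border macrophage gene. In the Apoe-rich cells Cdkn1a stood at 264, 105 and 222 CPM in ATV:RSV, at 96.5, 56.3 and 60.5 CPM at day 7, at 53.7, 79.9 and 83.4 CPM at day 14 and at 89.1, 52.5 and 53.4 CPM at day 28. The 9 ATV:4D9 values were below the 3 ATV:RSV values, and the other cells stood at 40.7 to 67.6 CPM in ATV:RSV and 49.7 to 93.9 CPM in ATV:4D9 mice.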

How the data were processed

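Single-cell libraries (3′ kit with UMIs) of 12 mice were taken from a series of 15; a further control animal named in the labels was not analysed here. Reads had been aligned by the authors to mm10 (Cell Ranger 4.0.0 per the submitters' processing notes), and cells filtered and then clustered with Seurat. The deposited matrix holds raw UMI counts per gene and cell, and the deposited cell table holds UMI and gene counts, the percent of mitochondrial UMIs, cluster and mouse of each cell; the limits of the cell filter are not given in the sources used here. The sums of the matrix equalled the table in 102043 of 102043 cells. Groups and batches came from the labels, and replicates are separate mice.

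UMI counts were summed per mouse over the Apoe-rich and over the other cells, without Apoe and the 7 border macrophage genes, scaled by TMM in edgeR 4.0.16 and compared by limma-voom in limma 3.58.1 (R 4.3.3) with the mouse as a block. Calls were made at an adjusted p (Benjamini-Hochberg) under 0.05. CPM refer to the TMM-scaled library, except in the bins of the Apoe share, which use unscaled UMIs with Apoe not counted. Since the other pools are far deeper, their counts were brought to the depth of the Apoe-rich pool of the mouse for filterByExpr (minimum count 10, minimum total count 15), a choice made after seeing the data. Days were compared in 1 fit of group means over the Apoe-rich pools, and as an interaction of pool and day over both pools. Values per mouse were tested with exact permutations. Alternatives were thresholds of 0.5% and 2%, other cell selections, scalings, filters, edgeR, DESeq2 1.42.0 and each mouse left out. No doublet caller was run; doublets were weighed by leaving out cells with 2 or more astrocyte markers or the 5% of cells with most UMIs. The fits were tested on simulated data. Wilson intervals and limits for a count of 0 (3 UMIs) cover counting error only.

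Besides list members, the text names the 12 highest and 12 lowest called genes that changed the same way in at least 11 of 12 mice with at least 5 observed (higher) or expected (lower) UMIs in 6 mice, and up to 3 highest and lowest called genes per day whose groups do not overlap, predicted genes aside. The members and gene lists were chosen with earlier results of these data known. Single values of some list members are not reported here; the counts over the lists include them.

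The batch number pairs the mice, since all conditions were present in each batch. The mean r between deviations of Apoe-rich pools from the mean of their group was 0.0138 within batches (18 pairs, -0.0519 to 0.0787) and -0.00692 between batches (36 pairs). Libraries of a group were not copies of each other (chi-square per gene 10.5 to 26.9). Positions are from GENCODE M21 on mm10.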

Additional observations from a re-analysis of the deposited data

Results flagged for a closer look

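At day 7, 14 or 28 of ATV:4D9 the gap between Apoe-rich and other cells differed from that in ATV:RSV for the following genes by the interaction test in limma-voom, and the groups did not overlap. All values are log2 interactions, the 3 days share the ATV:RSV mice, and the Apoe-rich pools of ATV:RSV held 22, 29 and 25 cells. A gene of low level can pass the filter through the pools where it is high, and its p-value then adds no support of its own.

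At day 7 the gap was more positive for Stk19 (2.59 ± 0.62, adjusted p = 0.0205), which had 5, 0 and 0 UMIs in the Apoe-rich cells of the ATV:RSV mice and 12, 11 and 15 at day 7. Gsg1 (2.37 ± 0.48, adjusted p = 0.00607) had 2, 1 and 0 UMIs against 15, 9 and 13, and C9orf72 (2.15 ± 0.49, adjusted p = 0.0158) 0, 3 and 1 against 14, 7 and 14. A UMI was worth 6.14, 5.27 and 6.93 CPM in these ATV:RSV pools but 3.02, 4.69 and 2.63 CPM at day 7. C9orf72 stood at 23.1 to 28.9 CPM in the other cells, under the 32.7 CPM of the filter. It passed through Apoe-rich pools, those of day 7 among them at 42.2, 32.9 and 36.8 CPM. Its p-value therefore adds no support of its own, and those of Stk19 and Gsg1, with similarly few UMIs, are read with the same limit. Stk19 was tested under 18 of the 22 alternatives, and Gsg1 and C9orf72 under 12 each. Stk19, Gsg1 and C9orf72 kept the call under 11, 10 and 8 of them. At the threshold of 0.5% their interactions were 0.45, 0.50 and 0.58 and did not pass. The call was also lost for Stk19 in edgeR and without ATV:RSV replicate 2 or 3 or any 1 day 7 mouse, for Gsg1 without ATV:RSV replicate 3, and for C9orf72 in edgeR, with border macrophages kept and without ATV:RSV replicate 1.

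At day 7 the gap was less positive for Lpl (-3.37 ± 0.63, adjusted p = 0.00291), with 92.1, 575 and 69.3 CPM in the Apoe-rich cells of ATV:RSV and 21.1, 42.2 and 44.7 CPM at day 7. It was also less positive for Itgax, an integrin of phagocytes (-2.68 ± 0.50, adjusted p = 0.0027), where the Apoe-rich pools overlapped (30.7, 153 and 34.6 against 18.1, 32.9 and 42.1 CPM) and the other cells stood at 3.21 to 3.52 CPM against 8.59 to 9.87 CPM. Lpl and Itgax passed the filter through the Apoe-rich pools alone. For Lpl the ATV:RSV pools, where it was high, stood above the 32.7 CPM that the filter asked for. These 2 p-values therefore add no support of their own. Without ATV:RSV replicate 2 the interactions of Lpl and Itgax were -1.78 and -1.67 and did not pass, and the call of Lpl was also lost without cluster 2. For Ifi204, an interferon-induced gene, the interaction was -2.47 ± 0.42 (adjusted p = 0.00124).

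At day 14 the gap was less positive for Eef1akmt1, a methyltransferase (-2.13 ± 0.40, adjusted p = 0.014), with 8, 8 and 9 UMIs in the Apoe-rich cells of ATV:RSV and 2, 1 and 4 at day 14. Cdkn1a had an interaction of -1.51 ± 0.28 (adjusted p = 0.0131) and Csf1, a growth factor of microglia, of -1.46 ± 0.32 (adjusted p = 0.0303). The call was lost for Eef1akmt1 and Cdkn1a without ATV:RSV replicate 3 or day 14 replicate 3, and for Csf1 without ATV:RSV replicate 2 or any 1 day 14 mouse. It was also lost for Eef1akmt1 at 0.5% and in edgeR. For Csf1 it was lost with border macrophages kept, without cells with any border macrophage gene, without the deepest cells, without cluster 2 and with library size alone. At 2% day 14 held replicate 3 alone, so no call is given there. At day 28 the interaction was -1.73 ± 0.25 for Cdkn1a (adjusted p = 0.00626), -0.49 ± 0.09 for Arpc1b, a subunit of the actin-branching Arp2/3 complex (adjusted p = 0.0389), and -0.42 ± 0.08 for B2m, the light chain of MHC class I (adjusted p = 0.0389). B2m stood at 3220, 2740 and 2370 CPM in the Apoe-rich cells of ATV:RSV and at 2090, 2300 and 2080 CPM at day 28. The calls of Arpc1b and B2m were lost without ATV:RSV replicate 1 or 2, without day 28 replicate 2 or 3 and, for B2m, also without day 28 replicate 1. Both were also lost at 0.5%, without cells with any border macrophage gene, without the deepest cells, without cluster 2, with library size alone and in edgeR, and B2m at 2% and without cells with astrocyte markers, so that Arpc1b kept its call under 12 and B2m under 9 of 22 alternatives. The day 28 call of Cdkn1a was lost at 0.5%, at 2% and without cells with any border macrophage gene.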

How the results depend on the processing

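Over all alternatives 17 to 24 DAM genes were higher, 11 or 12 homeostatic genes lower and 78 or 79 ribosomal protein genes higher in Apoe-rich cells. Against 844 higher and 415 lower genes, the totals were 397 and 193 at the threshold of 2% (2157 genes tested in 9 mice, since 3 had under 10 cells), 537 and 1198 with library size alone and 479 and 213 with no mouse block (no replicate block); the filter on the counts as summed gave 2957 and 640, and no filter 12920 and 968, or 796 and 741 in edgeR; leaving out each mouse gave 754 to 925 and 345 to 397. With no filter the median log2 difference of all genes was 1.33.

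For days among the Apoe-rich cells, the 2 genes at day 7 became 44 at 0.5%, 30 at 2%, 4 with border macrophages kept, 8 without cells with astrocyte markers, 4 without the deepest cells, 1 without cluster 2, 13 with no filter, 11 in edgeR, 4 in DESeq2, 10 with the batch as a block and 1 to 20 without 1 mouse (20 without ATV:RSV replicate 1). At day 14 the 0 became 5 at 2%, 1 with no filter and 0 to 3 without 1 mouse. At day 28 it became 27 at 2%, 1 without cluster 2, 3 with no filter, 1 with the batch as a block and 0 to 1 without 1 mouse.

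For the interaction, the 156 genes at day 7 became 95 without cluster 2 and 129 to 199 without 1 mouse. Of these the 14 with a more positive gap became 0 without the deepest cells, 25 at 2%, 8 in edgeR, 7 each without cluster 2, without cells with astrocyte markers and without cells with any border macrophage gene, 6 with border macrophages kept and 6 to 23 without 1 mouse. The 41 at day 14 became 80 at 0.5%, 7 without cells with any border macrophage gene, 3 without the deepest cells, 1 without cluster 2, 10 with library size alone, 9 in edgeR and 12 to 71 without 1 mouse (12 without day 14 replicate 3, 18 without ATV:RSV replicate 3). The 6 at day 28 became 39 at 2%, 0 without cells with any border macrophage gene, 3 without cells with astrocyte markers, 1 each without the deepest cells, without cluster 2, with library size alone and in edgeR, 12 with the size factors of DESeq2 and 1 to 15 without 1 mouse (1 without day 28 replicate 2 or 3).

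Among genes called above the sign turned for C1qc (-0.02 with library size alone), Cxcl10 (-0.28 at 2%), Lgmn (0.01 at 0.5%) and Cdkn1a at day 28 (interaction 0.26 at 2%). It also turned for the day 14 share (-0.0265 points at 2%, -0.0362 to 0.217 without 1 mouse). Of 4356 values of single genes under alternatives, 4088 kept their side of the threshold, and those of genes called above also their sign. For genes not called above the sign was not compared. The exact permutation test of the share over the 4 groups gave p = 0.046 with the mice permuted freely and 0.0781 within batches (paired by batch). Over the other cell selections the free p was 0.00123 to 0.0479, except 0.0679 without cells with any border macrophage gene, and the p within batches was 0.00521 at 0.5% and at 2%, 0.0399 without cells with any border macrophage gene and 0.0556 to 0.066 for the other 4. The cause of these changes was not tested. The filter on the counts as summed, edgeR with no filter, the 4-group test and the interaction under other scalings and under selections of cells by marker, depth or cluster were chosen after seeing the data. Depth limits genes of low level, since 1 UMI was worth 2.17 to 8.87 CPM in the Apoe-rich pools.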
